A study of Mus musculus with 4 samples.

Results

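The Polycomb repressive complex genes are described here by the accessible chromatin at Ezh1, Ezh2, Eed, Suz12, Jarid2, Mtf2, Aebp2, Cbx7 and Bmi1. These are 9 of 21631 annotated protein-coding genes of the mouse. Every ATAC-seq peak over their gene bodies or within 50 kb on either side was taken, with gene positions of the build GRCm38. ATAC-seq marks open DNA by the insertion of sequencing adapters by a transposase. Peaks from the 4 deposited lists were merged into 1 region wherever they overlapped by 1 bp or more. The 9 windows held 269 of 256632 such regions, and 205, 158, 198 and 163 listed peaks in the intermediate, iPSC, ESC and MEF.

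There was 1 library of 50000 cells for each of 4 cell populations. The intermediate consisted of fibroblasts carrying a Nanog-CreER reporter, with strain B6/129 and the transgenes Rosa26-TdTomato B6 female and Col1a-OSKM 129 male. Doxycycline and 4-hydroxytamoxifen were in their medium between days 1 and 9, together with 0.5 µM of a JAK1 inhibitor, as the opening step of conversion to neural stem cells. OSKM stands for the reprogramming factors Oct4, Sox2, Klf4 and Myc. Cells positive for tdTomato were sorted, and they are by construction cells with past Nanog-driven Cre activity. The sample title places them on day 9 and the source field on day 6. The induced pluripotent stem cells (iPSC) have the strain label A12 (Mbd3 flox/-), the embryonic stem cells (ESC) are v6.5, and the mouse embryonic fibroblasts (MEF) have the label of the iPSC. Strain and cell state therefore cannot be told apart in any comparison except iPSC over MEF, in which the allele Mbd3 flox/- is on both sides. The labels give no age, culture time or clone number for iPSC, ESC and MEF.

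Polycomb proteins keep genes silent through chromatin. Polycomb repressive complex 2 (PRC2) methylates a lysine in the tail of histone H3, with EZH1 or EZH2 as its catalytic subunit on a core of EED and SUZ12. Accessory subunits such as JARID2, AEBP2 and MTF2 help to place it on chromatin, and PRC1 complexes, which hold BMI1 or a relative and may hold a CBX reader such as CBX7, bind or ubiquitinate the nucleosomes. In pluripotent cells these complexes are best known for holding developmental regulators in a silent state. The deposited lists give accessibility at the genes that encode the complexes, not the binding of their proteins.

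A start-site peak is a listed peak within 1 kb of an annotated transcription start, or of either gene end where no start is annotated. All 9 genes had one in every list. Among all protein-coding genes, 62.1% had such a peak in the intermediate, 65.3% in iPSC, 67.1% in ESC and 64.0% in MEF, and 54.8% had one in all 4 lists. The 9 genes thus differed in how tall that peak was and in the regions around it, rather than in its presence. Start sequences of the genes with such differences are given first, without a test of any link between sequence and height. Each runs 5′ to 3′ on the gene's own strand from 250 bases before to 50 after a start and is taken from RefSeq on GRCm38.p6. All 9 genes matched the RefSeq promoter table, with 13 starts between them. Capitals mark short promoter motifs found on either strand, and matches that overlap were each counted. The motifs are CCAAT, bound by NF-Y, and the GC box GGGCGG, bound by Sp1 and its relatives. They further include the TATA box, searched as TATAAA, the E-box, searched as CACGTG, and an E2F-type site, searched as TTTGGCGC.

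Ezh2 and Ezh1 encode the alternative catalytic subunits and had the taller and the lower start-site peak of the 2 in every list. The Ezh2 promoter lies on the minus strand at chr6:47594981-47595280, and the Ezh1 promoter on the minus strand at chr11:101226414-101226713.
Ezh2: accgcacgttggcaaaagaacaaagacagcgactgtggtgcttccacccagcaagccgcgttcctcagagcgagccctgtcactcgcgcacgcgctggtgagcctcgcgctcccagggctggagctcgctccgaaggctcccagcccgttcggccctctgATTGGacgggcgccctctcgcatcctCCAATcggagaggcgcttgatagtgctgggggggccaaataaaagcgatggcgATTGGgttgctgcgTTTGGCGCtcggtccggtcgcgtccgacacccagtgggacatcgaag
Ezh1: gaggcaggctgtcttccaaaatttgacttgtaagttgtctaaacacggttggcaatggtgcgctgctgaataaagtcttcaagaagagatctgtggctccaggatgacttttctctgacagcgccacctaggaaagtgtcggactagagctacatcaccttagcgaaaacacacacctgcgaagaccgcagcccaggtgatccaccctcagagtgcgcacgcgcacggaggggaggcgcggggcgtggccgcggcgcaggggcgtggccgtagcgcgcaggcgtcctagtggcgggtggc
The Ezh2 sequence held 31 CG pairs, 3 CCAAT matches and 1 TTTGGCGC match. The Ezh1 sequence held 23 CG pairs and none of the letters searched. CCAAT was found in 37.4% of 32851 mouse promoters of the same length and TTTGGCGC in 0.514%.

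Aebp2 is shown at its upstream and its middle start, because the tallest peak near its start stood at different places in different lists. Both are on the plus strand, at chr6:140622413-140622712 and chr6:140624659-140624958.
Aebp2 upstream: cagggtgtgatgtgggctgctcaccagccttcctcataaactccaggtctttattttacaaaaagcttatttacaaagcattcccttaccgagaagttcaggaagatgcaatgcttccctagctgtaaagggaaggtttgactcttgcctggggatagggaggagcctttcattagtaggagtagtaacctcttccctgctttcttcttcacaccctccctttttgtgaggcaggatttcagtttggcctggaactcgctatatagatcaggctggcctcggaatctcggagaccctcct
Aebp2 middle: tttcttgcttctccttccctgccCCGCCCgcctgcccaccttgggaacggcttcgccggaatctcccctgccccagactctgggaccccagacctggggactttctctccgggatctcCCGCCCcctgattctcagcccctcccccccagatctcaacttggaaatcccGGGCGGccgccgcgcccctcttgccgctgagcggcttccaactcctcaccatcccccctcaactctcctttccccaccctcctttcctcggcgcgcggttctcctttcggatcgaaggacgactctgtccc
The upstream sequence held 4 CG pairs and none of the letters searched, and the middle sequence held 21 CG pairs and 3 GGGCGG matches. The median promoter had 7 CG pairs (quartiles 3 and 20), and 35.7% of promoters held GGGCGG.

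Mtf2 is shown at both of its annotated starts, because the internal one had a peak nearby in the pluripotent lists only. They lie on the plus strand at chr5:108065424-108065723 and chr5:108077915-108078214.
Mtf2 upstream: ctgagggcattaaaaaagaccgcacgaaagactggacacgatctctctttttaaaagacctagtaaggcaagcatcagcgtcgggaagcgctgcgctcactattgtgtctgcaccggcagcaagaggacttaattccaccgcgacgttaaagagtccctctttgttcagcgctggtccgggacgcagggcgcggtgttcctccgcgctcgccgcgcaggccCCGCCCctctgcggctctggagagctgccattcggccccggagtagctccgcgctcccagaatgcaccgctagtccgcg
Mtf2 internal: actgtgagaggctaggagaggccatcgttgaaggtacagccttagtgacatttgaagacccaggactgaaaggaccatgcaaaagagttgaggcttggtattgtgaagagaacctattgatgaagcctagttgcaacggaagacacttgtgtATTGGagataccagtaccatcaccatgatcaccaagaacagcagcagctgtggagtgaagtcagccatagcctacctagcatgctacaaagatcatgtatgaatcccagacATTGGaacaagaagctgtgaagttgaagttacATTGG
The upstream sequence held 30 CG pairs and 1 GGGCGG match, and the internal one 2 CG pairs and 3 CCAAT matches. Cbx7 is shown because its start-site peak ranked low in the intermediate and MEF and near the middle in ESC. Its promoter is on the minus strand at chr15:79932597-79932896.
Cbx7: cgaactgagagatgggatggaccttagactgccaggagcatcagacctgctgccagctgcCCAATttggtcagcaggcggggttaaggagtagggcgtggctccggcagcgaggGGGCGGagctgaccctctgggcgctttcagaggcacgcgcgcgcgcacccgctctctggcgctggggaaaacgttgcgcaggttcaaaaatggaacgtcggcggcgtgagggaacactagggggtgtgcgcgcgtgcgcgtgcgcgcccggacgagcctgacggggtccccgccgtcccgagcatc
It held 33 CG pairs, 1 CCAAT and 1 GGGCGG match. The starts of the remaining genes held 17 CG pairs at Eed, 41 at Suz12, 24 and 23 at the 2 starts of Jarid2 and 23 at Bmi1, whose sequence held 6 GGGCGG and 1 CACGTG match. TATAAA stood at the downstream start of Jarid2 and in 13.6% of promoters, and CACGTG in 7.15%. A match describes letters in the sequence and is no evidence that a factor binds there.

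Peak height is the whole-number signal that the authors' files give each peak, and it is not scaled to library size. Heights of different libraries are therefore set side by side without a fold change, and a percentile ranks a gene within 1 list among the protein-coding genes that had a start-site peak there. Each group is 1 library, so differences have no replicate check and no p-value, and read depth is unknown.

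Among the catalytic subunits, Ezh2 had start-site heights of 232 in the intermediate, 205 in iPSC, 157 in ESC and 138 in MEF. These were the 89.4th, 79.9th, 75.4th and 64.1st percentiles of the 4 lists in that order. Its rank was thus highest in the intermediate and lowest in MEF. Ezh1 reached heights of 45 in the intermediate, 59 in iPSC, 69 in ESC and 69 in MEF, at the 14.2nd, 21.4th, 27.1st and 30.5th percentiles. Its rank ran the other way, lowest in the intermediate and highest in MEF. Within a list no scaling between libraries is needed. There the Ezh2 peak was 5.16 times as high as the Ezh1 peak in the intermediate, 3.47 times in iPSC, 2.28 times in ESC and 2.00 times in MEF. These ratios take height as a linear signal, which is not stated, so they are not read as a change between cells.

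Of the other core subunits, Eed, which binds the methylated histone tail and stimulates the enzyme, had heights of 132, 124, 132 and 110 in the intermediate, iPSC, ESC and MEF. Its percentiles were 66.7 in the intermediate, 57.9 in iPSC, 65.4 in ESC and 52.7 in MEF. Suz12, the scaffold of the core, had 157, 95, 159 and 178 in the same order of cells. Its percentile was 74.7 in the intermediate, 44.5 in iPSC, 76.1 in ESC and 76.4 in MEF, so iPSC stood apart.

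Among the accessory subunits, Jarid2, which recruits PRC2 and stimulates it, had start-site heights of 176 in the intermediate, 198 in iPSC, 216 in ESC and 208 in MEF, and ranked at 78.6 or above in every list. Mtf2, a Polycomb-like protein that binds CG-rich DNA, had 150, 96, 148 and 105 in the same order, and stood at 72.5 and 72.0 in the intermediate and ESC against 45.0 and 50.2 in iPSC and MEF. Aebp2, a zinc finger protein that binds SUZ12, had 224 in the intermediate, 121 in iPSC, 106 in ESC and 158 in MEF. Its percentile was 88.2 in the intermediate and 56.7, 51.7 and 70.9 in iPSC, ESC and MEF. These values take the tallest peak near any of its starts. The tallest peak reaching within 1 kb of the middle start had 58 in the intermediate, 121 in iPSC, 106 in ESC and 158 in MEF. In iPSC, ESC and MEF this was the same peak as before. Its summit stood at -1464, -1409 and -1404 bp from the middle start, which is more than 1 kb away.

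The summit of the tallest Aebp2 peak also differed. It lay 158 bp upstream of the upstream start in the intermediate. In iPSC, ESC and MEF it lay 782, 837 and 842 bp downstream of that start, between the upstream and middle sequences printed above. One region of 4820 bp (chr6:140620501-140625320) joined all of these peaks. The third annotated Aebp2 start had no peak within 1 kb in any list.

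For the PRC1 genes, Cbx7, a chromodomain protein that reads the PRC2 mark, reached heights of 41 in the intermediate, 64 in iPSC, 102 in ESC and 40 in MEF. Its percentiles were 10.5, 25.4, 49.2 and 11.5, so it was among the low start-site peaks in the intermediate and MEF and near the middle in ESC. Bmi1, which partners the RING ubiquitin ligases of PRC1 and is known for silencing the Cdkn2a locus, had 98 in the intermediate, 148 in iPSC, 161 in ESC and 147 in MEF, with its lowest percentile, 51.3, in the intermediate. The Bmi1 start-site region (chr2:18675991-18678220) also touches the neighbouring gene Commd3, and peaks of the 2 genes cannot be told apart there.

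**Figure D1:**
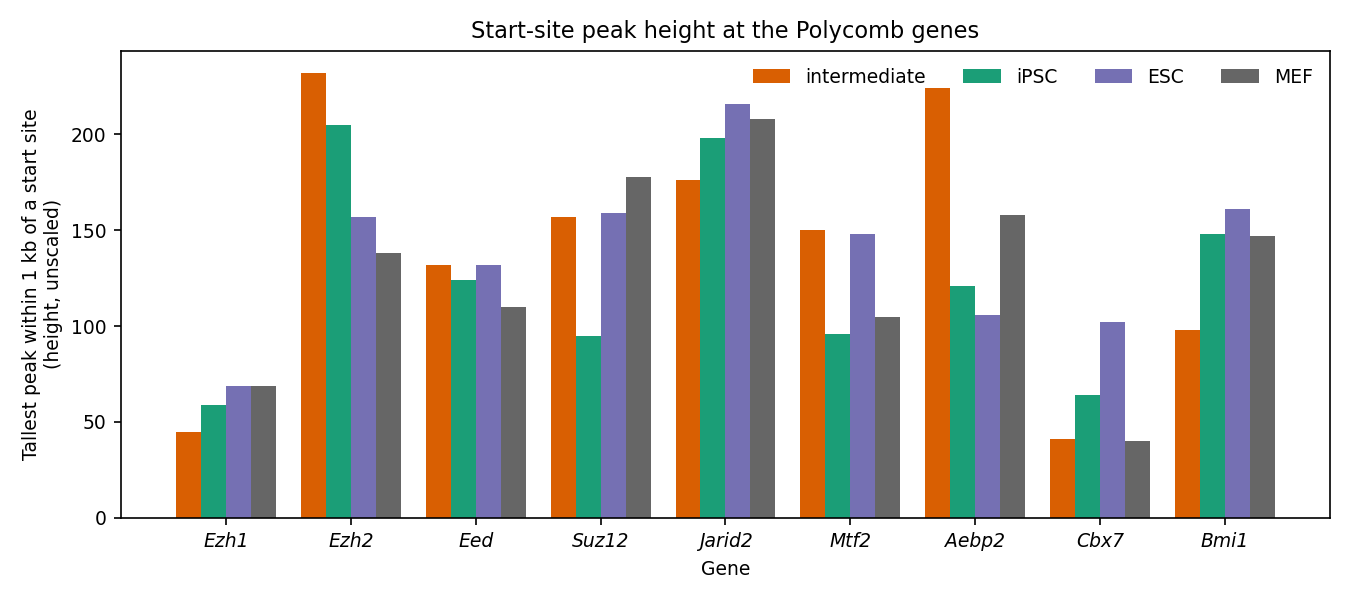
Height of the tallest peak within 1 kb of an annotated start (vertical axis, unscaled signal) for each of the 9 genes, with 1 bar per library. Ezh2 and Aebp2 are highest in the intermediate at 232 and 224, the latter near the upstream Aebp2 start. Ezh1 is low in all lists (45 to 69), and Cbx7 is at 41 in the intermediate, 64 in iPSC, 102 in ESC and 40 in MEF.

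The start sites contributed nothing to the change between the intermediate and MEF. Of 11 regions that held an annotated start or lay within 1 kb of one, 9 were open in all 4 lists, and none was gained or lost. Open means that a region held a listed peak of that library, gained means open in the first group and closed in the second, and lost means the opposite. The remaining 2 were the internal start of Mtf2 and a region beside the Cbx7 start with a peak in ESC alone (height 53). The Mtf2 region (chr5:108076721-108077930) ends 0.235 kb upstream of the internal start. It was closed in the intermediate, had a height of 65 in iPSC and 100 in ESC, and was closed in MEF.

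Around the starts, the windows of the 9 genes had 131 open regions in the intermediate, 98 in iPSC, 121 in ESC and 97 in MEF, which is 48.7%, 36.4%, 45.0% and 36.1% of their 269 regions. Over all regions of the genome these shares were 35.0%, 36.2%, 31.2% and 45.7%. The windows thus stood above the genome in the intermediate and ESC, close to it in iPSC and below it in MEF. The median gene of the 9 had 11 open regions in the intermediate, 9 in iPSC, 14 in ESC and 10 in MEF, and the median protein-coding gene had 7, 6, 7 and 9. Of the 269 regions, 30 (11.2%) were open in all 4 lists, against 7.03% of all regions.

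The windows hold other genes, so a region in one is not assigned to its Polycomb gene. The Polycomb gene was the nearest protein-coding gene for 155 of the 269 regions. That number was 47 of 60 at Aebp2 and 28 of 29 at Jarid2, which have few neighbours, but 2 of 18 at Suz12, 8 of 37 at Ezh1 and 5 of 17 at Bmi1.

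**Figure D2:**
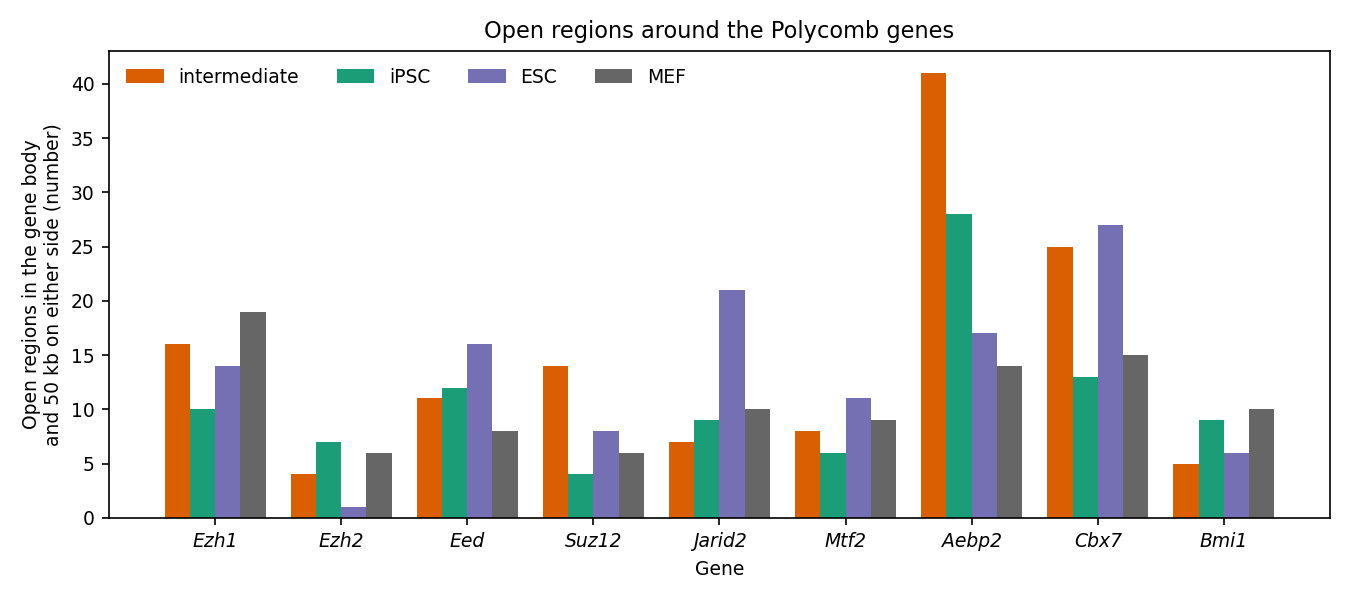
Number of open regions in the gene body and 50 kb on either side (vertical axis) for each gene, with 1 bar per library. Aebp2 has 41 in the intermediate, 28 in iPSC, 17 in ESC and 14 in MEF, Jarid2 has its highest number in ESC (21), and Ezh2 has 1 in ESC.

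Set against MEF, the intermediate had gained 98 regions at the 9 genes and lost 64. That is 36.4% gained and 23.8% lost of the 269, where all regions of the genome gave 25.1% gained and 35.8% lost. Gained regions made up 60.5% of those that changed (Wilson 95% interval 52.8 to 67.7, which like every interval here covers counting error over regions only) and 41.2% over the genome. Few genes gave most of the gained regions. Aebp2 and Cbx7 together gained 53. The other 7 genes gained 45 and lost 48, or 48.4% gained of those that changed (38.5 to 58.4), against 41.2% over the genome. Suz12 gained 11 and lost 3, and Eed gained 7 and lost 4. The remaining 5 genes lost more than they gained, with 12 gained and 15 lost at Ezh1, 3 and 5 at Ezh2, 4 and 7 at Jarid2, 6 and 7 at Mtf2 and 2 and 7 at Bmi1. For scale, 35.1% of all protein-coding genes gained more than they lost in the same window and 52.1% lost more. The files often divide an open stretch into peaks 10 bp apart. With these joined, the count was 64 gained and 32 lost, or 66.7% gained of those that changed, against 45.0% over the genome treated alike.

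The direction held in all 9 other settings listed per gene for Aebp2 and Suz12. For regions nearest to the gene, however, Suz12 had only 1 gained and 0 lost, where Aebp2 had 28 and 6. Eed turned to 9 gained and 11 lost in windows of 100 kb. Cbx7 turned to 6 and 7 at 20 kb, 24 and 38 at 100 kb and 3 and 7 for regions nearest to it. Jarid2 turned to 4 gained and 3 lost in 5 settings, which were peaks joined, heights under 10 left out, lists of equal length, the taller 50% and peaks of 500 bp. Mtf2 turned to 5 and 1 at 20 kb, 4 and 3 in the taller 50% and 6 and 0 for nearest regions. It was even at 4 and 4 with peaks joined, lists of equal length and peaks of 500 bp, and at 9 and 9 at 100 kb. Ezh1 turned to 8 and 5 at 20 kb and 4 and 0 for nearest regions, and Bmi1 to 2 and 1 for nearest regions. Ezh2 was even at 20 kb and in the taller 50%, with 2 and 2.

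**Figure D3:**
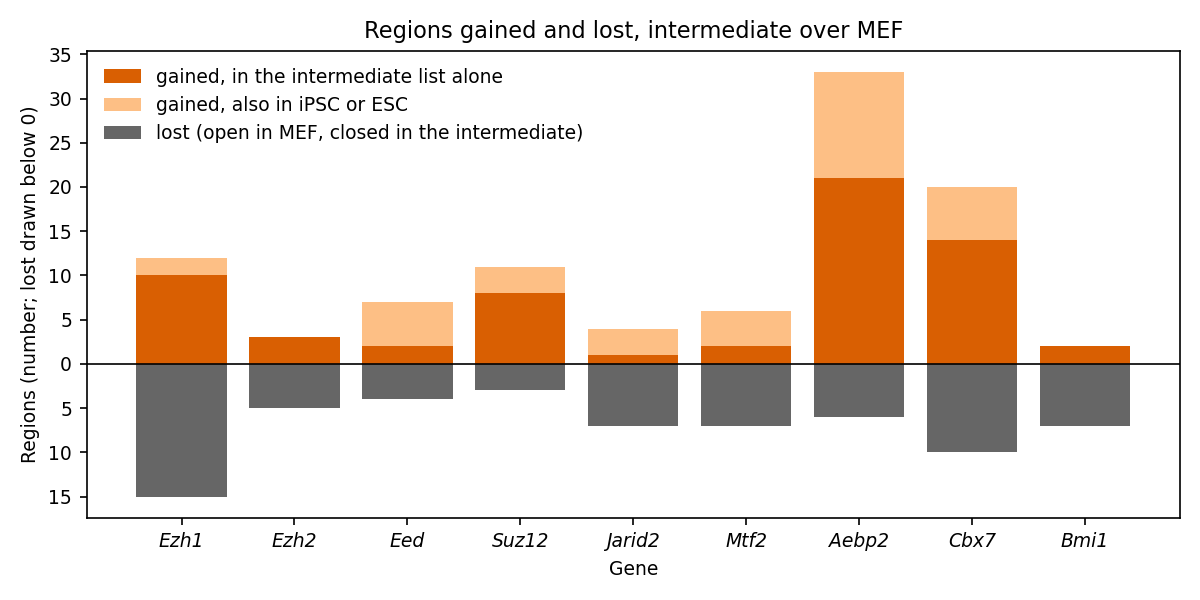
Regions gained (above 0) and lost (below 0) in the intermediate over MEF at each gene, with gained regions split into those in the intermediate list alone and those also in iPSC or ESC. Aebp2 gained 33, of which 21 are in no other list, and lost 6, and Ezh1 lost 15. Neighbouring peaks are counted unjoined, and with them joined Aebp2 gained 25, of which 13 are in no other list.

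Aebp2 had the most regions and the widest change. It had 41 open regions in the intermediate, 28 in iPSC, 17 in ESC and 14 in MEF, and listed peaks covered 20.1%, 13.4%, 10.9% and 9.64% of its window. In the intermediate over MEF it gained 33 and lost 6, of which 28 gained and 6 lost had Aebp2 as the nearest gene. Only 24 of 21631 genes had a larger excess of gained over lost regions. In iPSC over MEF it gained 23 and lost 9, and in ESC over MEF 12 and 9. The intermediate was also ahead of both pluripotent lists, with 25 regions gained and 12 lost over iPSC and 26 gained and 2 lost over ESC. With neighbouring peaks joined it gained 25 and lost 4 over MEF.

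The tallest Aebp2 peak in the intermediate was not at a start. It stood in the gene body at chr6:140666811-140668330, where heights were 530 in the intermediate, 98 in iPSC, 123 in ESC and 47 in MEF. It ranked 109th of 133235 peaks in the intermediate. The region was open in every list, so it counts neither as gained nor as lost. The tallest gained region lay at chr6:140651851-140652650 in the gene body, listed in the intermediate alone at a height of 234. Its peak was higher than 98.6% of the intermediate list. A further gene-body region (chr6:140642561-140643540) had 160 in the intermediate and 32 in iPSC and was closed in ESC and MEF.

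Of the 21 Aebp2 regions found in the intermediate alone, 8 lay in the gene body and 13 in the flanks, and 3 had a height of 100 or more. Upstream, the region chr6:140602891-140604210, 18.5 kb from the start and nearer to Plekha5, had 51 in the intermediate and 104 and 125 in iPSC and ESC and was closed in MEF. In the other direction, the tallest region lost (chr6:140682651-140683360), 4.18 kb past the gene, had a height of 155 in MEF and no peak elsewhere.

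Jarid2 had its most open regions in the ESC list. It had 7 open regions in the intermediate, 9 in iPSC, 21 in ESC and 10 in MEF. ESC over MEF gave 18 gained and 7 lost, and iPSC over ESC 0 gained and 12 lost. The intermediate over ESC gave 1 gained and 15 lost. The 11 Jarid2 regions in ESC alone were low, with heights from 6 to 47, and several are neighbouring peaks of 1 stretch, and with such peaks joined ESC had 15 open regions and the intermediate 7.

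Inside the Jarid2 gene body, 138 kb downstream of the start, the region chr13:44869101-44870540 held the tallest peak of any of the 9 windows in iPSC, ESC and MEF. Its heights were 487 in the intermediate, 516 in iPSC, 800 in ESC and 3330 in MEF. It ranked 137th, 429th, 65th and 34th in these lists. The summit stood at position 44869635 in all 4. Among the 18048 regions open in all 4 lists, 0.715% had the same summit position in each, and the median spread was 105 bp. At the 9 genes it was the only such region of 30, which had a median spread of 132.5 bp.

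**Figure D4:**
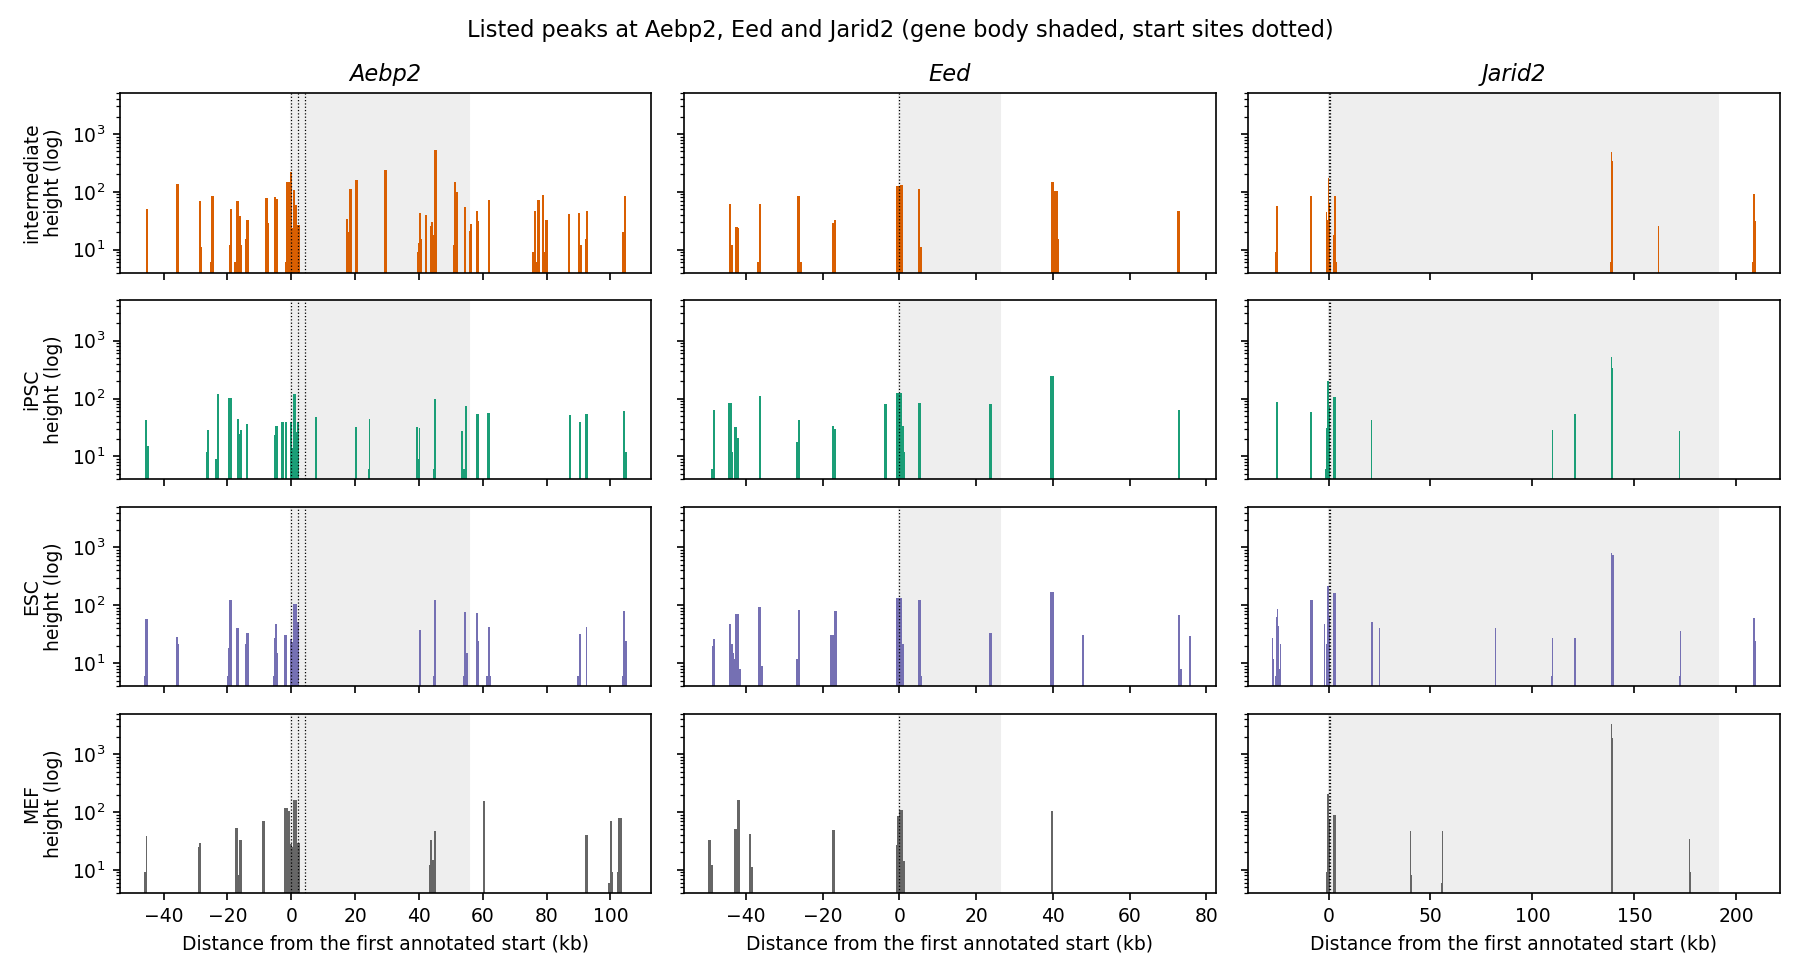
Listed peaks at Aebp2, Eed and Jarid2 by distance from the first annotated start along the gene (horizontal axis, kb) and height (vertical axis, logarithmic, unscaled), with 1 row per library and gene bodies shaded. Aebp2 has peaks through its gene body in the intermediate that are missing in MEF, Eed has the peak 4.77 kb past its start in the upper 3 rows, and the Jarid2 peak near 138 kb is present in all 4.

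A pluripotent region is one that both iPSC and ESC list and MEF does not. The intermediate had a listed peak in 22 of the 31 at the 9 genes, 71.0% (53.4 to 83.9). Over the genome it had one in 10315 of 28782, or 35.8%, and 39.8% in windows of protein-coding genes. Aebp2, Eed and Cbx7 held 18 of the 22, with peaks in 9 of 10, 5 of 6 and 4 of 4 of their pluripotent regions. The other 6 genes together had peaks in 4 of 11. At Jarid2 the intermediate had 2 of 6 and at Mtf2 1 of 3, at Suz12 1 of 1 and at Ezh1 0 of 1. Ezh2 and Bmi1 had no such region.

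Eed had pluripotent regions open in the intermediate both in its gene body and in the flanks of its window. It had 11 open regions in the intermediate, 12 in iPSC, 16 in ESC and 8 in MEF. The region chr7:89975341-89976210, in the gene body 4.77 kb downstream of the start, had heights of 113 in the intermediate and 83 and 121 in iPSC and ESC and no peak in MEF. Upstream, chr7:90006821-90007780 had 85, 42 and 82 and chr7:90016801-90017870 had 61, 112 and 95 in the same 3 lists, again with none in MEF. The exception was chr7:89956971-89957710, near the end of the gene, with 80 in iPSC and 33 in ESC and no peak in the intermediate or MEF. One upstream region (chr7:90022651-90024140) was open everywhere, at 25 in the intermediate, 32 in iPSC, 70 in ESC and 161 in MEF.

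At Jarid2 the pluripotent regions upstream of the gene were open in the intermediate and those inside it were not. The region chr13:44721821-44722930, 7.84 kb upstream, had 85 in the intermediate, 59 in iPSC, 124 in ESC and none in MEF. The region chr13:44704781-44706211 had 57, 86 and 87 in the intermediate, iPSC and ESC. The tallest inside the gene, chr13:44751591-44752350, had 43 in iPSC and 52 in ESC and no peak in the intermediate or MEF. At Mtf2 the region chr5:108097371-108098370 in the gene body had 66 in the intermediate, 48 in iPSC, 69 in ESC and none in MEF.

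Cbx7 had 25 open regions in the intermediate, 13 in iPSC, 27 in ESC and 15 in MEF. The intermediate gained 20 and lost 10 over MEF, but only 3 of the 20 gained had Cbx7 as the nearest gene, against 7 of the 10 lost. With peaks joined these were 11 and 5. Of the 14 regions in the intermediate alone, which joining reduced to 6, the tallest (chr15:79992751-79993860, height 94) lay 2.01 kb from Pdgfb, which encodes a growth factor chain. The regions nearest to Cbx7 thus gave 3 gained and 7 lost. Of the 14 regions in ESC alone, 12 had Cbx7 as the nearest gene and 11 lay in its gene body. Their heights ran from 6 to 54. Several are neighbouring peaks of the same stretch, which the counts that follow keep separate. With such peaks joined, Cbx7 had 19 open regions in ESC, 16 in the intermediate, 11 in iPSC and 10 in MEF. Over MEF, ESC gained 19 regions and lost 7 at Cbx7, and iPSC gained 7 and lost 9. In iPSC over ESC 3 regions were gained and 17 lost. A gene-body region 3.81 kb downstream of the start (chr15:79926771-79928841) was closed in the intermediate and had heights of 93 in iPSC, 111 in ESC and 47 in MEF. In the annotated gene body 20.8 kb upstream of the listed start, chr15:79953441-79954350 had 78 in the intermediate, 42 in iPSC, 27 in ESC and none in MEF.

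At Bmi1 the intermediate had fewer open regions than the other lists, with 5, against 9 in iPSC, 6 in ESC and 10 in MEF. This did not hold for regions nearest to Bmi1, with 3 in the intermediate, 3 in iPSC, 2 in ESC and 2 in MEF. At 100 kb the counts were 10, 16, 9 and 16 in the same order. Of 17 regions, 2 that were open in the other 3 lists had no peak in the intermediate. They were chr2:18680481-18681610 inside the gene, with 78 in iPSC, 33 in ESC and 58 in MEF, and chr2:18688531-18690860 past its end, with 52, 50 and 39. The 2 regions gained over MEF both lay in the gene body and in no other list, the taller (chr2:18684021-18684470) at 81. Of the 7 lost, 1 had Bmi1 as the nearest gene, and the tallest (chr2:18720831-18721530, height 61 in MEF) lay in Spag6, a gene for a protein of the sperm flagellum.

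Ezh2 had few regions in a window of 165 kb, with 4 open in the intermediate, 7 in iPSC, 1 in ESC and 6 in MEF. In ESC the start-site region was the only open one, and 4.7% of protein-coding genes had fewer open regions in that list. The tallest region gained in the intermediate over MEF (chr6:47599831-47600351), 4.80 kb upstream of the start, had a height of 76 and no peak in the other 3 lists. The tallest lost, chr6:47559181-47559671 in the gene body, had 59 in MEF alone. In iPSC over ESC Ezh2 gained 6 regions and lost none, 5 of them in iPSC alone. The low number in ESC depends on the window, since at 100 kb there were 5 open regions in the intermediate, 16 in iPSC, 40 in ESC and 7 in MEF.

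At Ezh1 the intermediate had 16 open regions, iPSC 10, ESC 14 and MEF 19. None of the 15 regions lost over MEF had Ezh1 as the nearest gene, and the tallest (chr11:101259731-101261150) lay in Wnk4, a kinase gene, with 48 in iPSC, 66 in ESC and 71 in MEF. The 4 gained in the Ezh1 gene body are neighbouring peaks of 1 stretch. The tallest (chr11:101224271-101224751), 1.71 kb downstream of the start, was listed in the intermediate alone, at a height of 91, and the others had heights of 6 to 9. With peaks joined, Ezh1 gained 5 regions and lost 6, against 12 and 15 unjoined.

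At Suz12 the intermediate had 14 open regions, iPSC 4, ESC 8 and MEF 6. The intermediate gained 11 over MEF, or 6 with peaks joined. Of the 11, 1 had Suz12 as the nearest gene and none lay in its gene body. The tallest gained (chr11:80055851-80056711, height 80, intermediate alone) and the tallest lost (chr11:80049931-80050710, height 106 in MEF alone) both lay in Crlf3. The one nearest to Suz12 (chr11:79979411-79981030), 12.1 kb upstream, had 62 in the intermediate and 50 in ESC and was closed in iPSC and MEF. At Mtf2 none of the 7 regions lost had Mtf2 as the nearest gene and all 6 gained did. The tallest gained, chr5:108089711-108090250 in the gene body, had 110 in the intermediate and no peak elsewhere.

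Set against iPSC, the intermediate had gained 74 regions at the 9 genes and lost 41, or 27.5% and 15.2% of 269. The genome gave 22.3% gained and 23.5% lost. Gained regions were 64.3% (55.3 to 72.5) of those that changed, against 48.7% over the genome and 52.5% in windows of protein-coding genes. Aebp2, Cbx7, Ezh1 and Suz12 gave most of them, with 25, 15, 11 and 10 gained and 12, 3, 5 and 0 lost. Set against ESC, the intermediate had gained 71 and lost 61, or 26.4% and 22.7%, where the genome gave 21.6% and 17.8%. The gained share, 53.8% (45.3 to 62.1), was close to the 54.8% of the genome, and windows of protein-coding genes gave 57.4%. Here the genes went opposite ways, with 26 gained and 2 lost at Aebp2 and 1 gained and 15 lost at Jarid2. Without Aebp2 the count was 45 gained and 59 lost.

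For the pluripotent cells, iPSC over MEF gave 60 gained and 59 lost at the 9 genes, which is 22.3% and 21.9%. The genome gave 26.4% and 35.8%. ESC over MEF gave 80 gained and 56 lost, or 29.7% and 20.8%, where the genome gave 20.9% and 35.4%. Gained regions were 58.8% (50.4 to 66.7) of those that changed in ESC, against 37.1% over the genome. In iPSC over ESC 30 regions were gained and 53 lost, or 11.2% and 19.7%, and the genome gave 16.5% and 11.4%. The gained share at the 9 genes was 36.1% (26.6 to 46.9), against 59.0% over the genome. Cbx7 and Jarid2 gave 29 of the 53 lost. These comparisons share libraries with each other and with those above, so they are not independent.

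Regions that MEF listed and neither pluripotent library did were rarely open in the intermediate. It had a peak in 3 of 55 at the 9 genes, 5.45% (1.87 to 14.9), and in 5.11% of such regions over the genome. All 3 were at Aebp2. Of the 131 regions open in the intermediate, 63 were in no other list, 48.1% (39.7 to 56.6), close to the 52.0% of the whole intermediate list. The 9 genes had 24.5% of their iPSC regions in no other list, 33.9% of their ESC regions and 53.6% of their MEF regions, where the whole lists had 38.3%, 26.1% and 70.9%.

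The profile of a window, taken as the share of its covered bases that each of the 4 lists contributes, was compared with those of 34 further Polycomb genes. Over these 4 values Aebp2 was nearest to Pcgf3, at a distance of 0.022. The nearest gene of every other member was farther away, from 0.043 for Cbx7 and Pcgf6 to 0.087 for Suz12 and Epop.

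Start-site peaks were also common in this wider list, which covers PRC1 subunits, PRC2 accessory genes, the BAP1 complex and the histone demethylases that remove the PRC2 mark. Of the 34 genes, 30 had one in the intermediate, 32 in iPSC, 33 in ESC and 33 in MEF, and 30 in all 4 lists. None was gained in the intermediate over MEF and 3 were lost. Phf19, a Polycomb-like relative of Mtf2, had no peak in the intermediate or iPSC, a height of 30 in ESC and 51 in MEF. Scml2, a PRC1-associated gene, had none in the intermediate, 137 in iPSC, 70 in ESC and 31 in MEF. Bcorl1, a corepressor gene, had none in the intermediate, 48 in iPSC, 57 in ESC and 48 in MEF. Bcor had none within 1 kb of a start in any list. With start-site windows of 2.5 kb, all 34 genes, Bcor included, had a peak in ESC and in MEF. In that setting 32 had one in the intermediate and 32 in iPSC.

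In the windows around the 34 genes, 11 genes gained more regions than they lost in the intermediate over MEF, 21 lost more and 2 were even. That is 32.4% and 61.8% of the list, against 35.1% and 52.1% of all protein-coding genes, so the share that gained was near the background. The genes named next were chosen after their values were seen, from the ends of the list. Phc1, a PRC1 subunit that multimerises, gained 18 and lost 8, and Pcgf1 gained 16 and lost 3. Phc2 gained 10 and lost 35, and Kdm6b, a demethylase gene, gained 2 and lost 31.

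**Figure D5:**
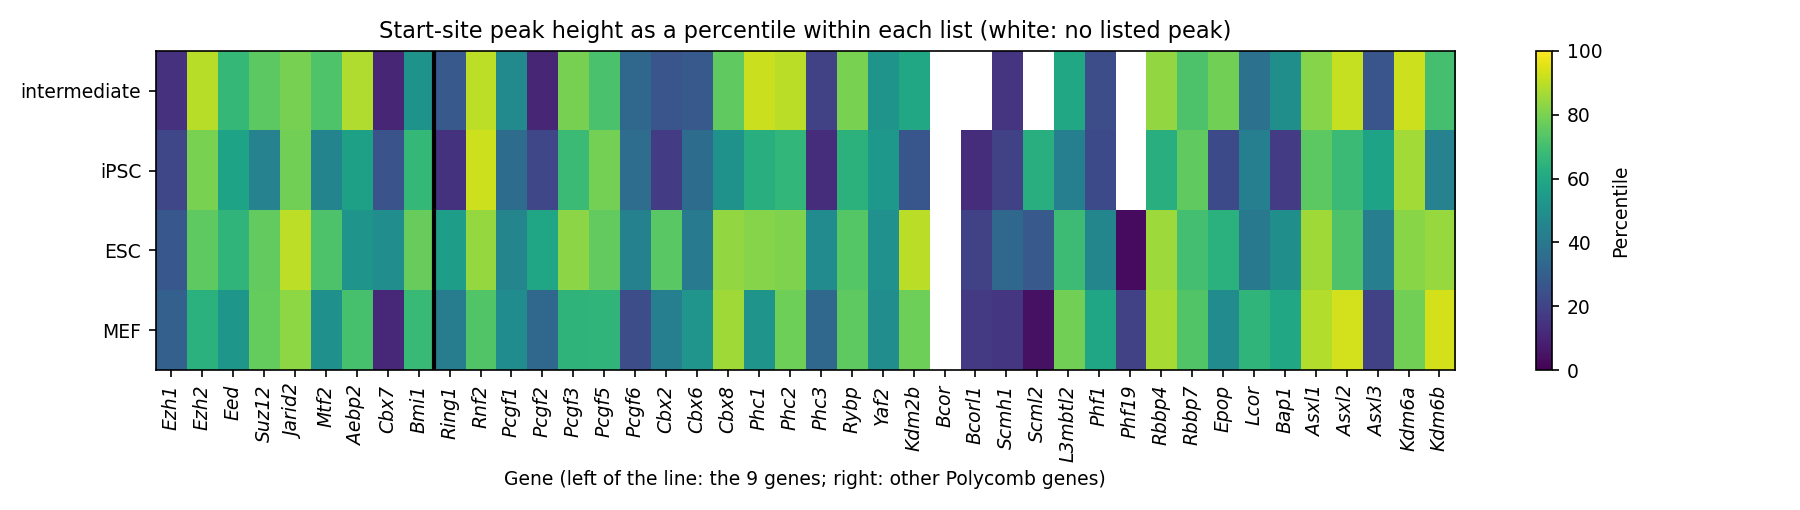
Percentile of the tallest start-site peak within each list (colour, 0 to 100) for the 9 genes and further Polycomb genes of the wider list (columns), with 1 row per library and white where no peak is listed. White cells are at Bcor in all rows, at Bcorl1 and Scml2 in the intermediate, and at Phf19 in the intermediate and iPSC.

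The labels were checked on start-site peaks of marker genes. Of 10 pluripotency genes, 7 had one in the intermediate, 10 in iPSC, 9 in ESC and 2 in MEF. Of 8 fibroblast genes, 3 had one in the intermediate, 3 in iPSC, 5 in ESC and 8 in MEF. Of 3 endothelial genes 0, 2, 1 and 1 had one in the same order of cells, and of 3 myeloid genes 1 in each list, which was Cd68. Pou5f1 had a start-site peak in iPSC alone (height 790). The part of feeder or unconverted cells in the values above was not tested. Lists held 133235 peaks in the intermediate, 132875 in iPSC, 129533 in ESC and 157212 in MEF, with median heights of 34, 39, 32 and 30 and a lowest height of 5 in each.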

How the data were processed

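ATAC-seq was measured in 4 libraries, 1 per group. Per the submitters' processing notes, MACS 1.4.2-1, Picard, Bowtie2 and CASAVA 1.8.2 were used with mm10, in roles that are not given. The deposited peak lists give start, end, summit and height per peak, per the file headers. Height is a signal that the authors wrote as whole numbers, with no scaling stated, so heights rank peaks within a list only. Read depth is unknown, and a region without a listed peak is called closed although its accessibility was not measured.

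Peaks of the 19 autosomes and X that shared 1 bp were merged into regions. Gene positions and promoter sequences came from RefSeq (GRCm38.p6). An annotated start was available for 17274 of 21631 protein-coding genes, and either gene end served for the others. Distances run to the nearest annotated start. The genes and lists were chosen with earlier results of these data known. All 9 genes were named, with their start-site regions, their tallest regions gained, lost, pluripotent and open in the intermediate alone; other regions in the text were chosen after their values were seen. Values of 1 gene of the wider list are not reported here by name. No test was run with 1 library per group; shares carry Wilson 95% intervals, and counts were set beside all regions. Python 3.11.15, pandas 2.3.3, numpy 2.4.6 and matplotlib 3.10.9 were used. The merging was checked on simulated peaks and against bedtools 2.31.1. Alternatives were windows of 20 kb and 100 kb, joined peaks, heights of at least 10, lists of equal length, the taller 50% of each list, 500 bp around each summit, at least 50% of a region covered, regions nearest to the gene, Aebp2 and Cbx7 both left out, each gene left out, and start-site windows of 0.5 kb and 2.5 kb.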

Additional observations from a re-analysis of the deposited data

How the results depend on the processing

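Values are the gained share of the regions that changed at the 9 genes. Intermediate over MEF (60.5%) was 50.0% in windows of 100 kb, 68.4% with lists of equal length (genome 45.7%) and 48.4% without Aebp2 and Cbx7, a setting chosen after seeing the counts. Intermediate over ESC (53.8%) turned to more lost than gained in windows of 20 kb (46.8%) and 100 kb (42.2%), with peaks joined (49.4%, where the genome gave 48.3%), for regions nearest to the gene (46.8%) and without Aebp2 and Cbx7 (41.7%). iPSC over MEF (50.4%) turned to more lost at 100 kb (42.7%), in the taller 50% of each list (49.3%) and without Aebp2 and Cbx7 (42.3%), and was 59.4% at 20 kb, 64.1% joined (genome 51.3%), 60.4% with equal lists (47.0%), 61.7% with peaks of 500 bp (50.2%) and 60.0% for nearest regions. ESC over MEF (58.8%) was 68.3% at 20 kb, 69.9% joined (genome 46.3%), 70.3% with equal lists (42.2%), 67.4% with 500 bp peaks (45.5%) and 67.4% for nearest regions. Intermediate over iPSC (56.7% to 69.6%) and iPSC over ESC (28.8% to 39.3%) kept their direction in all 10 settings.

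The pluripotent share (71.0%) was 51.1% at 100 kb and 52.9% without Aebp2 and Cbx7, and the MEF-only share was 0.00% without them. The share in the intermediate alone (48.1%) was 33.7% joined, 39.3% in the taller 50% and 36.6% with 500 bp peaks, where the genome moved alike, from 52.0% to 37.7%, 40.9% and 38.4%. Leaving out 1 gene at a time gave 52.8% to 63.7% for intermediate over MEF, 60.8% to 67.3% over iPSC and 43.3% to 60.3% over ESC. It gave 42.5% to 54.8% for iPSC over MEF (48.6% without Eed), 55.5% to 62.2% for ESC over MEF and 25.0% to 42.9% for iPSC over ESC. It gave 61.9% to 80.0% for pluripotent regions, 0.00% to 6.82% for MEF-only regions and 46.1% to 50.8% in the intermediate alone. The lowest values of intermediate over MEF, intermediate over ESC, iPSC over MEF, iPSC over ESC, pluripotent regions and MEF-only regions are those without Aebp2. The causes were not tested. Start-site counts were 9 in every setting, and 30 to 32 of the wider list in the intermediate. No paired analysis was possible because each group has 1 library. Depth per list is unknown, so an unlisted region may be open below the authors' threshold.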
